A study of Mus musculus with 8 samples.

Results

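The genes described here encode 49 transcription factors of the Sox, POU, Nkx, Pax, sine oculis (Six2, Six4 and Six5), Irx, Zfhx, Onecut, Zeb, Cux, Otx and Prox families, out of 15705 genes listed. They were taken by gene symbol alone, as every listed symbol of these families apart from Sox6, Nkx2-1 and Six3, which are not described here. Sox proteins bind DNA through an HMG box, POU proteins through a POU-specific domain joined to a homeodomain, and most of the others through a homeodomain, with added paired domains in Pax, cut domains in Onecut and Cux, and zinc fingers in Zfhx and Zeb. In the embryonic forebrain, Sox factors of the B1 group mark neural progenitors, class III POU factors act in progenitors and young neurons, and Pax6, Nkx and Otx factors divide the tube into territories.

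Messenger RNA was measured by sequencing in mouse embryos at E18.5, in the lateral ganglionic eminence (LGE), which gives rise to striatal projection neurons. The conditional knockout (cKO) group held 4 libraries of genotype Dlx1-Cre; Isl1 flx/flx, and the control group held 4 libraries of littermates of genotype Isl1 flx/flx. Both groups therefore carried floxed alleles of Isl1, a LIM-homeodomain factor of ventral forebrain neurons, and Cre was present in the cKO alone, so that Cre and the loss of Isl1 cannot be told apart. Deletion was limited to cells in which the Dlx1-driven Cre was active. The labels name separate embryos but no litter or sex. Values are adjusted read values, which are read counts that were scaled and adjusted before deposit and rounded to whole numbers. Sequencing depth is unknown.

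Isl1 itself had adjusted read values of 4930, 5377, 5618 and 5971 in the cKO libraries, against 3777, 3692, 4186 and 3517 in the control libraries. It was higher in cKO by a log2 fold change of 0.53 ± 0.06 (SE, limma adjusted p = 0.000338). The value covers the whole gene, and no source used here gives the part removed by Cre, so it checks no label, and every direction below rests on the labels. The LGE identity was checked with 11 markers of striatal projection neurons, whose summed RPKM (the read value divided by gene length and library sum) was 754 to 785 in cKO and 728 to 754 in control libraries. That sum holds opposite moves, since Adora2a (log2 fold change 0.31), Meis2 (0.34) and Drd2 (0.20) rose and Ppp1r1b (-0.74) and Rarb (-0.40) fell. Markers of other cells also differed between the groups. Of 9 microglial genes, 7 rose, with summed RPKM of 49.3 to 62.4 in cKO and 29.9 to 35.8 in control libraries. Of 5 erythroid genes, 2 rose (171 to 213 RPKM in cKO, 118 to 168 in control). All 4 cholinergic markers fell (0.255 to 0.473 RPKM in cKO, 2.27 to 3.71 in control). Of 4 listed thalamic markers, only Gbx2 fell (log2 fold change -1.81, limma adjusted p = 0.00649). The summed RPKM of that list overlapped, 3.06 to 3.71 in cKO and 2.95 to 6.9 in control. The 9 pallial neuron markers varied between libraries rather than groups, with none past the test, 3.99 to 17.9 RPKM in cKO and 1.78 to 19.5 in control, and the lowest sums in cKO replicate 4 and control replicate 3. No marker in these lists was at 0 in all libraries. In whole tissue, fewer cells of a type and less RNA per cell cannot be told apart.

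Of the 49 factors, 9 rose in cKO LGE. Among the risen were 3 of the 4 class III POU genes, Zfhx3 and Zfhx4, Sox9, Sox12, and the barely detected Pou2f3 and Pax5. All 49 entered the test, Pax5 and Irx3 with fewer than 4 libraries at 1 or more in one of the groups. The risen factors made up 18.4%, beside 2.87% of all 15698 genes tested (limma, Benjamini-Hochberg adjusted p under 0.05). Over all genes tested, 3.78% fell, 6.66% passed in either direction, and 12.7% had cKO and control values that did not overlap. Among genes with a mean value of at least 200, 7 of 28 factors passed (25%), beside 6.9% of all such genes in either direction. The median log2 fold change was 0.08 over the factors and 0.01 over all genes. The authors' deposited table also held these 9 genes at an adjusted p under 0.05, where 6.55% of its genes passed in either direction.

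**Figure D1:**
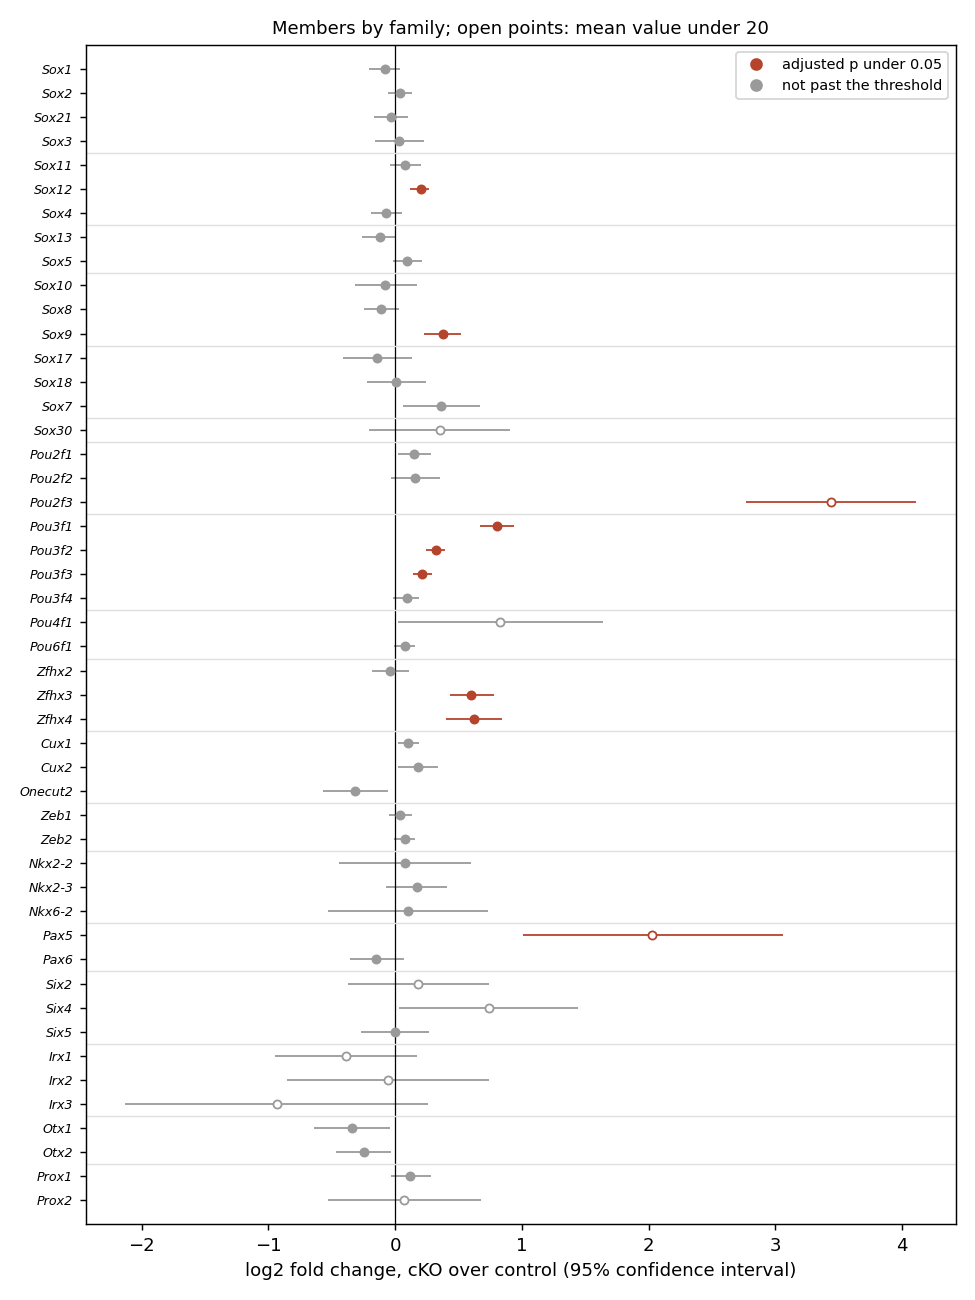
Log2 fold change of the factors described, cKO over control, with its 95% confidence interval, ordered by family, with red for an adjusted p under 0.05 and open points for a mean value under 20. Among the 16 Sox genes only Sox9 and Sox12 are red, while Pou3f1, Pou3f2, Pou3f3, Zfhx3 and Zfhx4 lie to the right of 0.

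Class III POU factors, which act in the embryonic forebrain, rose in 3 of 4 cases. Pou3f1 (chromosome 4, 124656807 to 124660655, plus strand, GRCm38), also known from myelinating Schwann cells, had adjusted read values of 2625, 2691, 2835 and 2747 in cKO, against 1364, 1686, 1631 and 1573 in control. The lowest cKO library was above the highest control library, and the means were 2724 ± 89 in cKO and 1564 ± 141 in control (SD, n = 4 each), a 1.74-fold ratio. Its log2 fold change was 0.80 ± 0.06 (SE, limma adjusted p = 8.53e-06). Pou3f2 (chromosome 4, 22482780 to 22488366, minus strand), a neurogenic factor, had values of 4803, 4564, 4470 and 4625 in cKO, against 3743, 3642, 3700 and 3744 in control. These groups did not overlap either, and the control SD of 48.1 was the smaller, beside 140 in cKO. The log2 fold change of Pou3f2 was 0.32 ± 0.03 (adjusted p = 0.000125). Pou3f3 (chromosome 1, 42695768 to 42703176, plus strand), which acts with Pou3f2 in cortical neuron production, had values of 7717, 7065, 7209 and 7283 in cKO, against 6285, 6122, 6383 and 6427 in control. All 4 cKO values were higher, by a smaller margin, at a log2 fold change of 0.21 ± 0.04 (SE, adjusted p = 0.00341). Pou3f4, an X-linked gene needed in the inner ear, had values of 2970, 2918, 3047 and 3217 in cKO, against 2706, 2834, 3131 and 2793 in control. Control replicate 3 lay inside the cKO range, and the log2 fold change of 0.09 (95% confidence interval -0.02 to 0.19) did not pass (adjusted p = 0.402).

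The order of the class III genes by level per length differed between the genotypes. In cKO libraries Pou3f3 came first at 98.4 RPKM, followed by Pou3f1 (36.0 to 38.9 RPKM), Pou3f2 (29.4 to 31.6) and Pou3f4 (25.5 to 27.8), with no overlap between neighbours. In control libraries Pou3f3 also came first at 85.3 RPKM, but Pou3f4 (24.1 to 27.2 RPKM) and Pou3f2 (23.8 to 25.1) overlapped and Pou3f1 was last (19.1 to 22.9). The class summed to 193 ± 4.08 RPKM in cKO and 156 ± 2.9 RPKM in control (SD, n = 4 each). Pou3f1 supplied 19.4 ± 0.85% of that sum in cKO libraries and 13.8 ± 1.09% in control libraries, whereas the share of Pou3f2 was 15.3 to 16.0% in cKO and 15.2 to 16.2% in control. Pou3f2 and Pou3f3 are also pallial genes. Without the pair of libraries lowest in pallial markers, the log2 fold change of Pou3f1 was 0.82, that of Pou3f2 0.31 and that of Pou3f3 0.22, and all 3 passed (largest adjusted p = 0.0341). The libraries with more pallial signal stayed in that fit, so the part of pallial tissue in these rises was not tested. The summed microglial markers moved with the same groups, and their part in these rises was not tested.

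**Figure D2:**
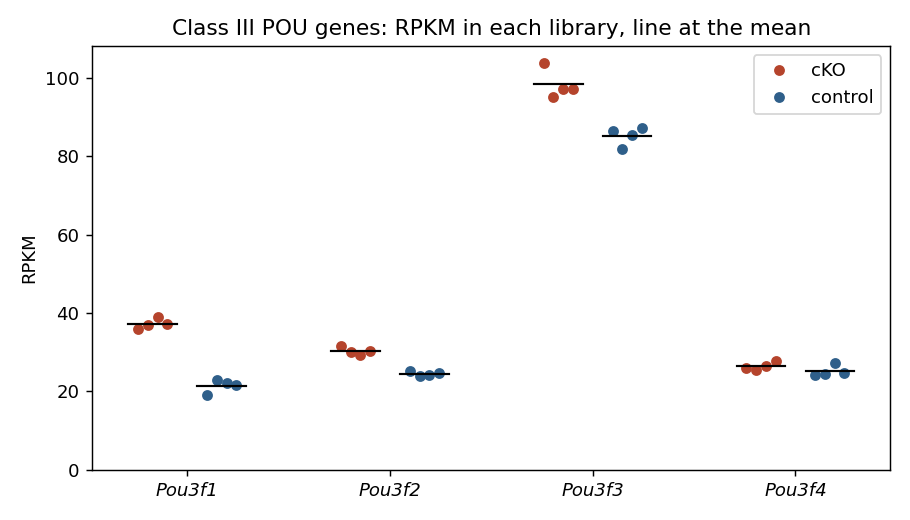
RPKM of the 4 class III POU genes in each library, with cKO in red to the left of control in blue and a line at each mean. Pou3f1 lies between 36.0 and 38.9 in cKO and between 19.1 and 22.9 in control, while the Pou3f4 groups overlap.

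The neighbouring tested genes of the risen class III loci did not pass. On either side of Pou3f3, the long noncoding RNAs Pantr1 and Pantr2 had log2 fold changes of 0.09 (limma adjusted p = 0.47) and 0.48 (adjusted p = 0.106). Pantr1 lies on the other strand, and its start is 926 bases before that of Pou3f3. Beside Pou3f1, Utp11 was at 0.06 and Rragc at -0.01. Beside Pou3f2, Fbxl4 was at 0.00 and Gm30731 at -0.17. The windows of 250 bases before the start of Pou3f2 (chr4:22488367-22488616, minus strand) and Pou3f3 (chr1:42695518-42695767, plus strand) are shown because these genes of 1 class rose together, from RefSeq (GRCm38.p6), with each CpG in capitals:
Pou3f2: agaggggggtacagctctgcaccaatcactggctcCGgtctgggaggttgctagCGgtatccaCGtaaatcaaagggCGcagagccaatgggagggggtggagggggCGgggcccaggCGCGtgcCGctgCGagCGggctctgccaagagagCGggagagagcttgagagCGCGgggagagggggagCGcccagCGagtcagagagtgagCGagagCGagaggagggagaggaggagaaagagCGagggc
Pou3f3: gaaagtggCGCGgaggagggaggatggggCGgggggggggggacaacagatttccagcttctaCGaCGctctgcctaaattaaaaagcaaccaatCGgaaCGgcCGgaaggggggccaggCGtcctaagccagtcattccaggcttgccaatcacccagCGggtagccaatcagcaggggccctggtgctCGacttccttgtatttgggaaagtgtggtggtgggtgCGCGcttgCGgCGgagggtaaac
The Pou3f2 window held 18 CpG and the Pou3f3 window 15, where the median over all 32851 promoter windows was 6 and that over the 48 windows of 35 of the factors was 15. As many CpG as in the Pou3f2 window occurred in 21.7% of all windows. Neither window held TAATTA or CTAATG on either strand, the letters of a common homeodomain core and of an Isl1-type core. No window was available for Pou3f1, so its promoter was not examined. Over all windows 4.84% held TAATTA and 6.36% held CTAATG, and over the windows of the factors 4.17% and 2.08%, with Otx2 holding TAATTA and Nkx6-2 holding CTAATG.

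Outside class III, Pou2f3 was the POU gene that rose. Pou2f3 (chromosome 9, 43123939 to 43210369, minus strand), known as the master factor of chemosensory tuft cells, had values of 26, 29, 16 and 23 in cKO, against 1, 1, 2 and 1 in control. It was close to absent in every control library and present at a low level in every cKO library, 0.384 ± 0.0913 RPKM in cKO and 0.0205 ± 0.00803 RPKM in control. The log2 fold change was 3.44 ± 0.31 on the log2(value + 1) scale, which understates it (adjusted p = 3.31e-05). The adjacent genes Tmem136 (-0.10, adjusted p = 0.38) and Oaf (-0.05, adjusted p = 0.898) did not pass. The other class II genes did not pass either. Pou2f1, a widely expressed octamer-binding factor, ranged from 2907 to 3594 in cKO and 2773 to 3057 in control (0.15 ± 0.06, adjusted p = 0.194). It did pass without cKO replicate 3 (adjusted p = 0.0448). Pou2f2, best known in B cells, ranged from 299 to 346 in cKO and 251 to 312 in control (0.16 ± 0.09, adjusted p = 0.353). Pou4f1, a sensory and habenular factor, stayed at 7 or less in all 8 libraries. Pou6f1, a brain-expressed POU gene, was abundant (41.1 RPKM in cKO, 39.2 RPKM in control) and did not pass, at a log2 fold change of 0.08 (95% confidence interval -0.01 to 0.16, adjusted p = 0.331).

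**Figure D3:**
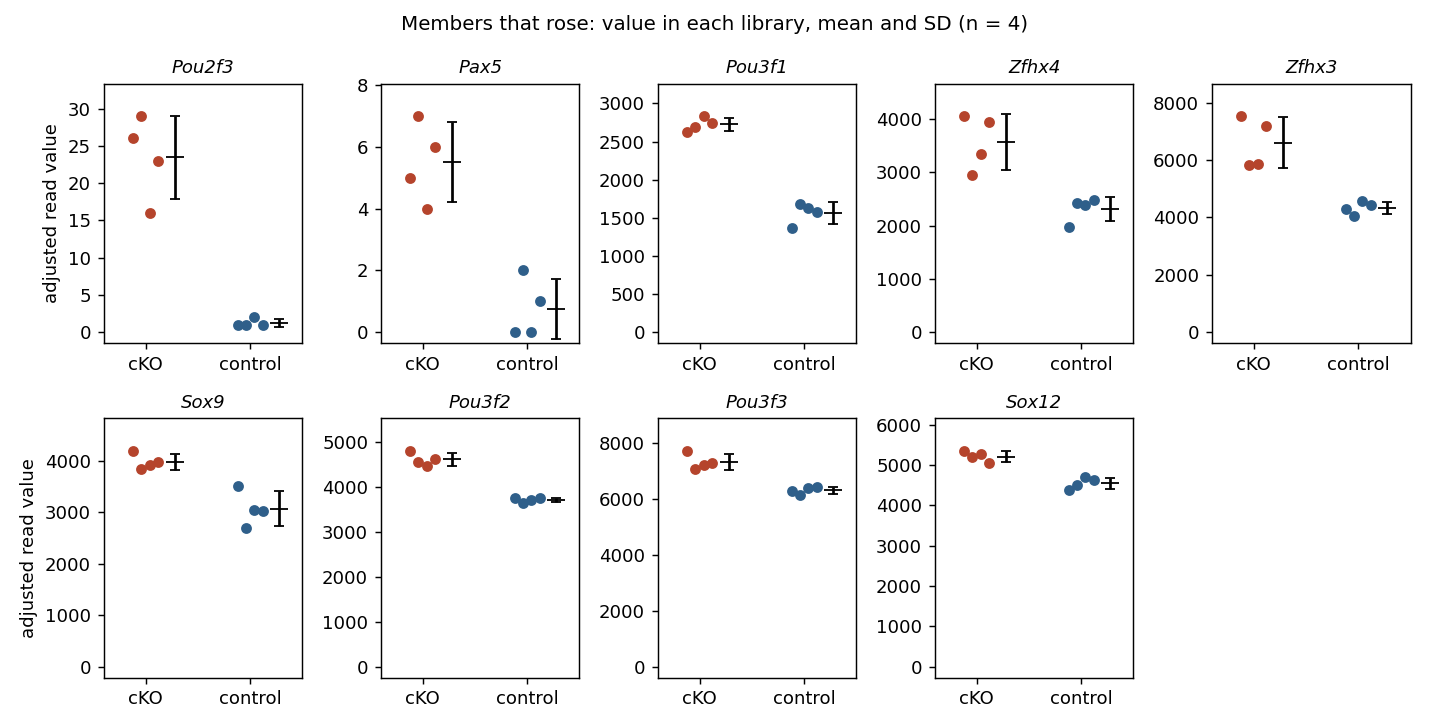
Adjusted read value of the 9 factors that rose in each library, cKO in red and control in blue, with the mean and SD of 4 libraries beside the points. The groups do not overlap in any panel, and Pou2f3 and Pax5 reach at most 29 and 7.

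Both large zinc finger homeobox genes Zfhx3 and Zfhx4 rose by about the same factor. Zfhx3 (chromosome 8, 107942644 to 108961630, plus strand), which in mice is needed for late-born striatal projection neurons of the direct pathway, had values of 7532, 5834, 5874 and 7189 in cKO, against 4299, 4033, 4555 and 4416 in control. The ratio of the means was 1.53, and the log2 fold change 0.60 ± 0.08 (SE, limma adjusted p = 0.000689). Zfhx4 (chromosome 3, 5218526 to 5415857, plus strand), a close relative of Zfhx3, had values of 4060, 2950, 3342 and 3942 in cKO, against 1980, 2419, 2394 and 2475 in control. Its ratio of the means was 1.54, and the log2 fold change 0.62 ± 0.10 (adjusted p = 0.00259). In both genes no control value reached the lowest cKO value, and cKO replicates 1 and 4 were the highest libraries. Per length, Zfhx3 was at 16.6 ± 2.18 RPKM in cKO and 10.9 ± 0.589 in control, and Zfhx4 at 10.6 ± 1.53 in cKO and 6.91 ± 0.619 in control (SD, n = 4 each). The antisense gene 2700069I18Rik, which overlaps Zfhx4, did not pass, at 0.37 on the log2 scale (adjusted p = 0.465). No source used here gives the strand setting of the counting, so reads of this pair cannot be told apart. Zfhx2, the third gene of the family, ranged from 1230 to 1506 in cKO and from 1389 to 1538 in control, with a log2 fold change of -0.04 (95% confidence interval -0.18 to 0.11, adjusted p = 0.827). That interval did not reach the intervals of Zfhx3 (0.43 to 0.78) and Zfhx4 (0.40 to 0.84). Zfhx2os overlaps Zfhx2 on the other strand, so the same limit on telling reads apart holds for that pair.

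Of the 16 Sox genes, 2 passed, and their mean RPKM over all libraries ran between 0.21 for Sox30 and 306 for Sox4. Sox9 (chromosome 11, 112782224 to 112787760, plus strand), a factor of radial glia and the astrocyte lineage, had values of 4191, 3829, 3908 and 3966 in cKO, against 3516, 2696, 3036 and 3032 in control. Control replicate 1 was the highest control library and still below every cKO library. The log2 fold change was 0.38 ± 0.07 (SE, limma adjusted p = 0.00502), and Sox9 did not pass without the pair of libraries lowest in pallial markers (0.38, adjusted p = 0.0543). Of 8 markers of radial glia and astrocytes none passed, and their summed RPKM was 1300 to 1560 in cKO and 1530 to 1650 in control, with overlap. Most of that sum was Fabp7 (1270 RPKM in cKO, 1390 RPKM in control). Fabp7 (log2 fold change -0.12), Slc1a3 (-0.14), Aldoc (-0.18), Hopx (-0.72), Aldh1l1 (-0.10) and Aqp4 (-0.04) had lower means in cKO. Hes5 (0.07) and the scarce Gfap (0.35, at 0.367 RPKM in cKO and 0.272 RPKM in control) had higher means. The part of radial glia and astrocytes in the rise of Sox9 was not tested. The adjacent transcript BC006965, 248 bases before Sox9 on the other strand, did not pass (log2 fold change 0.05, adjusted p = 0.95).

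The other Sox E genes did not pass. Sox8 ranged from 2721 to 3105 in cKO and from 2753 to 3415 in control (-0.11 ± 0.06, adjusted p = 0.408). Sox10, which drives oligodendrocyte differentiation, ranged from 103 to 130 in cKO and from 105 to 127 in control (-0.08 ± 0.11, adjusted p = 0.78). None of 4 oligodendrocyte precursor markers passed. All 4 had lower means in cKO, with log2 fold changes of -0.19 (Pdgfra), -0.15 (Olig2), -0.12 (Olig1) and -0.17 (Cspg4). Their summed RPKM was 33.5 to 36.8 in cKO and 36.9 to 42.0 in control, without overlap. Per length, the ranges of Sox8 and Sox9 overlapped in cKO, at 37.5 to 42.8 RPKM for Sox8 and 38.1 to 41.8 for Sox9. In control Sox8 was above Sox9 without overlap, at 37.6 to 46.7 RPKM for Sox8 and 26.6 to 35.7 for Sox9.

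Sox4 and Sox11, of the Sox C genes that act in newborn neurons, had the highest mean RPKM of the factors. Sox4 stood at 298 ± 18.1 RPKM in cKO and 314 ± 14.8 in control, and Sox11 at 184 ± 14.9 RPKM in cKO and 174 ± 3.89 in control (SD, n = 4 each). Neither passed, with log2 fold changes of -0.07 for Sox4 (95% confidence interval -0.19 to 0.05) and 0.08 for Sox11 (-0.04 to 0.20). Sox12 (chromosome 2, 152393611 to 152398063, minus strand), the third Sox C gene, had adjusted read values of 5353, 5187, 5262 and 5041 in cKO, against 4387, 4497, 4697 and 4626 in control. The groups did not overlap, and the log2 fold change was small, at 0.20 ± 0.03 (SE, limma adjusted p = 0.00527). Its neighbours Nrsn2 (0.40, adjusted p = 0.189) and Zcchc3 (0.09, adjusted p = 0.382) did not pass. The promoter window of Sox12 held the octamer ATGCAAAT, the classic POU recognition letters, searched after the sequence was seen. It lies on the strand of the gene and begins 195 bases before the RefSeq start, which lies inside the GENCODE gene given above, and is shown in capitals (RefSeq, GRCm38.p6, chr2:152398204-152398271, minus strand):
Sox12: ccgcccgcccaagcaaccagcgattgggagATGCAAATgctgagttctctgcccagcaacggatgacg
This octamer occurred in 1.6% of all windows on either strand and in 4.17% of the windows of the factors. The other match was Prox2, which did not pass (limma adjusted p = 0.93). A match describes letters and shows no binding, and a link between POU genes and Sox12 was not tested.

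Progenitor Sox genes of the B groups did not pass. Sox2, the pluripotency and neural stem cell factor, ranged from 7147 to 7852 in cKO and from 6946 to 7765 in control (0.04 ± 0.04, adjusted p = 0.718). Sox1 ranged from 4004 to 4544 in cKO and from 4164 to 4941 in control (-0.08 ± 0.06, adjusted p = 0.491). Sox3 and Sox21 had log2 fold changes of 0.03 and -0.03. The intervals of these 4 genes all lay within -0.21 to 0.23, the upper limit being that of Sox3. The noncoding Sox2ot, which surrounds Sox2, did not pass (log2 fold change -0.12, adjusted p = 0.573). Sox5 and Sox13 of the D group were at 0.09 and -0.12, and neither passed.

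Endothelial Sox F genes were scarce and did not pass. Sox7 ranged from 70 to 100 in cKO and from 60 to 74 in control (0.36 ± 0.14, adjusted p = 0.18), Sox17 was at -0.14 and Sox18 at 0.01. None of 8 endothelial markers passed, and their summed RPKM overlapped, 55.7 to 69.9 in cKO and 55.4 to 63.1 in control. Sox30, a germ cell gene, was at 13 to 24 in cKO and 9 to 15 in control.

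**Figure D4:**
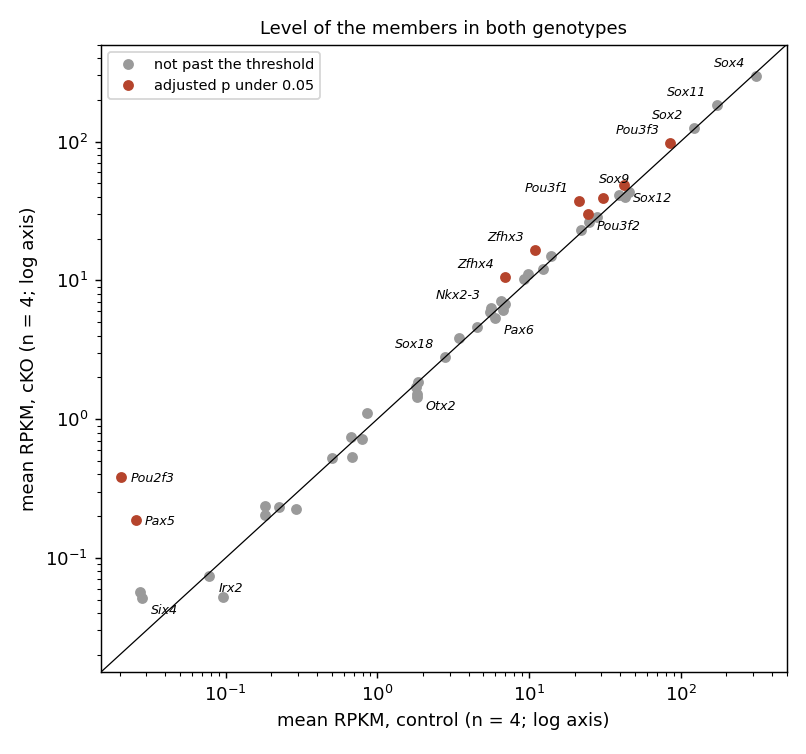
Mean RPKM of the factors described in cKO (vertical, log axis) against control (horizontal, log axis), n = 4 each, with equality as a line and red for factors past the threshold. The red points of Pou3f1, Pou3f2, Pou3f3, Sox9, Sox12, Zfhx3 and Zfhx4 lie above the line at the upper end, and Pou2f3 and Pax5 above it at the lower end.

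Pax and other patterning genes showed a single low call. Pax5, a midbrain and B cell factor, had values of 5, 7, 4 and 6 in cKO, against 0, 2, 0 and 1 in control. It entered the test through the cKO libraries, and its log2 fold change of 2.03 ± 0.47 on the log2(value + 1) scale (limma adjusted p = 0.0233) rests on values of 7 or less. The call was lost without cKO replicate 1, 2 or 4 or control replicate 1, 3 or 4 (adjusted p between 0.0512 and 0.0729). Pax6, a factor of pallial progenitors and of dorsal LGE, ranged from 527 to 708 in cKO and from 586 to 782 in control (-0.15 ± 0.10, adjusted p = 0.476).

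The 3 Nkx genes described here did not pass. Nkx2-3 was the most abundant of these 3, at 6.35 ± 0.791 RPKM in cKO and 5.65 ± 0.631 RPKM in control (SD, n = 4 each). It was 0.17 higher in cKO on the log2 scale (limma adjusted p = 0.449). Nkx2-2, a ventral neural tube factor, ranged from 22 to 41 in cKO and from 22 to 39 in control, and Nkx6-2 from 19 to 54 in cKO and from 21 to 35 in control. None of 4 markers of cells from the medial ganglionic eminence passed, with summed RPKM of 64.1 to 91.4 in cKO and 88.4 to 113 in control.

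Otx1 and Otx2, head and forebrain homeobox genes, both had lower means in cKO without passing. Otx1 ranged from 76 to 112 in cKO and from 108 to 138 in control, at a log2 fold change of -0.34 ± 0.14 (SE, adjusted p = 0.195). Otx2 ranged from 88 to 106 in cKO and from 110 to 125 in control, without overlap, at a log2 fold change of -0.25 ± 0.10 (SE, adjusted p = 0.2). Choroid plexus, where Otx2 is strongly expressed, had summed marker RPKM of 1.69 to 3.92 in cKO and 1.76 to 122 in control, the highest in control replicate 1, and none of 5 markers passed. Otx2 in that library was 125, against 110, 120 and 116 in the other control libraries.

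Cut homeobox genes did not pass. Cux1 and Cux2, which mark upper-layer cortical neurons, had log2 fold changes of 0.10 ± 0.04 (adjusted p = 0.172) and 0.18 ± 0.07 (adjusted p = 0.195). Onecut2 ranged from 160 to 184 in cKO and from 187 to 273 in control, without overlap, at a log2 fold change of -0.32 ± 0.12 (SE, adjusted p = 0.152). Zeb1 and Zeb2, repressors that act in migrating cells and, for Zeb2, in interneuron specification, had log2 fold changes of 0.04 (95% confidence interval -0.05 to 0.13) and 0.08 (-0.01 to 0.16). Prox1, a factor of differentiating progenitors and lymphatic vessels, ranged from 657 to 732 in cKO and from 606 to 741 in control (0.12 ± 0.07, adjusted p = 0.383).

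The remaining factors were scarce. Six5 ranged from 113 to 147 in cKO and from 110 to 149 in control. Irx1, Irx2, Irx3, Six2, Six4 and Prox2 had mean values under 20 over all libraries, and the Irx genes together reached at most 0.537 RPKM in cKO and 0.513 RPKM in control. Six4 was at 10, 7, 5 and 6 in cKO, against 3, 3, 5 and 4 in control (0.74 ± 0.32, adjusted p = 0.246). Among the factors that did not pass, the 21 with a mean value of at least 200 had log2 fold changes between -0.15 and 0.18.

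Of 24 listed cofactors known to work with these families, among them the partners Eya1 to Eya4 and Dach1 and Dach2 and the corepressors of the Tle, Ctbp and Ncor families, 1 rose and none fell, with a median log2 fold change of 0.01, beside 2.87% risen and 3.78% fallen over all genes. The riser was Ssbp2, a partner of LIM-domain complexes, with values of 6389, 6461, 6515 and 6660 in cKO, against 5894, 5659, 5909 and 5668 in control (0.17 ± 0.03, limma adjusted p = 0.0069). Tle4, a Groucho-type corepressor, was next at 0.16 ± 0.04 (adjusted p = 0.0501), followed by Tle2 at -0.26 ± 0.07 (adjusted p = 0.0629). Of 5 listed noncoding transcripts next to or overlapping the factors or Six3, namely Pantr1, Sox2ot, Zeb2os, Zfhx2os and Six3os1, none passed. Zeb2os and Zfhx2os overlap Zeb2 and Zfhx2 on the other strand. With the strand setting unknown, reads of these pairs cannot be told apart.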

How the data were processed

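Per the submitters' processing notes, STAR, featureCounts and edgeR were used on mm10; no source used here gives versions, annotation or strand setting. The columns headed raw in the deposited table hold a score: read values that were scaled (upper quartiles of 1624 to 1635 in all 8 libraries) and lack 1 direction of variation within groups (singular value 0.0182 against 3.29 for the next), a trace of a removed factor read from the values, so that SDs, SEs and p-values may be too small. The deposited RPKM columns equal the same values per library sum and gene length. The deposited p-values and log2 fold changes of the authors were used as an alternative; by the values, their sign is cKO over control. No count model was fitted.

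Values were analysed as log2(value + 1) for 15698 genes with at least 1 in 4 or more libraries (7 left out), with limma 3.58.1 (mean trend) in R 4.3.3, adjusted over all genes at a threshold of 0.05. The procedure was tested on simulated independent counts. These had neither the scaling nor the missing direction of variation, so that test does not cover their effect on the p-values. Confidence intervals of 95% use the limma spread. Positions are from GENCODE (GRCm38, the assembly of mm10). Factors, lists and alternatives were chosen with earlier results of these data known. Named are the factors that passed (1 factor is not reported here), the 10 highest by RPKM, and the 8 with the smallest p among the rest; other factors are given to complete their families. Protein sequences were not used here.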

Additional observations from a re-analysis of the deposited data

Results flagged for a closer look

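In 7 of 98 groups of 4 libraries, a single library stood apart from the other 3 by most of the range of its group, which chance does in about 1 of 20 groups. Cux2 was lowest in control replicate 1, at 1058, with the group reaching 1325. Zfhx4 was also lowest in control replicate 1, at 1980, with the group reaching 2475, and Zfhx4 rose in cKO without that library as well. Zfhx2 was lowest in cKO replicate 2, at 1230. Nkx6-2 was lowest in control replicate 4, at 21, and Sox30 in control replicate 3, at 9. Pou2f3 was highest in control replicate 3, at 2, against 1 in the other 3 control libraries, and Pou4f1 was highest in control replicate 2, at 4, against 2 in the others, both of which are steps of 1 or 2 units.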

How the results depend on the processing

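The count of risen factors was 9. It stayed at 7 to 10 under every alternative run. These were pseudocount 5, no filter, a filter of 50, both other scalings, RPKM, no mean trend and 1 charged degree of freedom. The others were the authors' table, the replicate block, each library left out, and the pair of libraries lowest in pallial markers left out. The count was 7 without that pair, and also 7 with the filter of 50, which took Pax5 and Pou2f3 out of the test. No direction reversed among the named factors or Isl1. Pou3f1, Pou3f2, Pou3f3, Zfhx3, Zfhx4 and Sox12 passed in all 19 alternatives, and Pou2f3 in the 18 that kept it. Sox9 was lost in 1 alternative and Pax5 in 8, among them the charged degree of freedom (adjusted p = 0.0555). Over all genes, 1045 passed, 610 without the libraries lowest in pallial markers, and 658 to 959 when 1 library was left out, the lowest without control replicate 4. Same-numbered libraries did not consistently deviate together (r = 0.408, -0.167, -0.492 and -0.771 for replicates 1 to 4). With 4 libraries per group and a trace of a removed factor, this check cannot exclude a shared litter or batch. With the replicate block 10 factors rose, Pou2f1 being added (limma adjusted p = 0.0395), and 1199 genes passed. Depth is unknown, and the low values of Pou2f3, Pax5, Six4 and the Irx genes limit what can be seen there.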
